A study of Mus musculus with 26 samples.

Results

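Chat, Slc5a7, Slc18a3, Ache and the nicotinic receptor subunit genes Chrna3, Chrna4, Chrna5, Chrnb2, Chrnb3 and Chrnb4 were followed across mouse microglia libraries. These 10 genes of acetylcholine signalling were chosen by symbol because several of them had been seen only in libraries of Grn KO mice. Their higher level in Grn KO libraries is therefore how they were chosen. It is given as a description, and where the fit over all genes counts members in that contrast, the count supports nothing. All 10 were matched by Ensembl identifier among the 52636 genes of the count tables. All 10 also passed the expression filter that left 21371 genes for testing, although for a gene seen almost only in Grn KO libraries that group alone carried it past the filter.

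Poly(A) RNA of microglia, the resident macrophages of the brain, was sequenced from mice of 7 genotypes. The product of Grn, progranulin, is secreted and taken into lysosomes, and that of Tmem106b sits in the lysosomal membrane. Tmem106b WT mice were Grn WT (3 libraries), Grn HET (5) or Grn KO (4). Tmem106b HET mice were Grn WT (4), Grn HET (3) or Grn KO (3), and Tmem106b KO mice were Grn WT (4). The 26 libraries were labelled as 14 female and 12 male, and their dissection as Entire in 18 and Hemi in 8, with no further explanation. Both Grn KO groups held 1 Hemi library each. The sources used here do not give the kind of allele, the age of the mice, how the microglia were isolated or whether each library came from a separate animal. A p-value therefore sets a difference against the spread of these libraries only, and this spread may be technical in part.

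Counts summed to 37.6 to 63.7 M per library. Levels are given as CPM, the count scaled to a sum of 1 M per library, and a floor of 3 counts corresponds to 0.0471 to 0.0799 CPM in a single library. Grn itself was at most 16.2 CPM in Grn KO libraries, at least 728 CPM in Grn WT libraries and 916 to 1870 CPM in Grn HET libraries. Tmem106b was at 22.3 to 35.1 CPM in Tmem106b KO libraries, 41.5 to 89.0 CPM in Tmem106b HET and 52.6 to 93.3 CPM in Tmem106b WT libraries. Its RNA thus overlapped between Tmem106b HET and WT, and was still counted in Tmem106b KO. The 8 microglia markers, among them Csf1r and Tmem119, summed to 8595 to 52134 CPM. The lowest sums belonged to 2 Hemi libraries, Tmem106b HET Grn KO replicate 3 and Tmem106b KO Grn WT replicate 2. In the same libraries 12 neuron markers, led by Snap25, Map1b and Stmn3, summed to 12428 and 12258 CPM, against at most 4402 CPM in each of the other 24. Both libraries stand apart, and counts of called genes are also given without them.

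Acetylcholine is made in nerve terminals by choline acetyltransferase, the product of Chat, from choline taken up by the transporter that Slc5a7 encodes. The vesicular transporter encoded by Slc18a3 loads it into synaptic vesicles, and acetylcholinesterase, encoded by Ache, breaks it down in the synaptic cleft. Nicotinic receptors are ion channels of 5 subunits that acetylcholine opens. In the brain the alpha4 and beta2 subunits form the most widespread type. The alpha3 and beta4 subunits, joined in part by alpha5 or beta3, are known from autonomic ganglia and from the medial habenula, a small nucleus whose neurons also make acetylcholine.

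In the GENCODE annotation of the mouse assembly GRCm38, Chat (ENSMUSG00000021919) spans 32408203 to 32465989 on the minus strand of chromosome 14. Slc18a3 (ENSMUSG00000100241) lies within that span at 32462438 to 32464850 on the same strand, and the pair share 0 exonic bases. Chrna5 (ENSMUSG00000035594), Chrna3 (ENSMUSG00000032303) and Chrnb4 (ENSMUSG00000035200) are neighbours within 67900 bases of chromosome 9, from 54980880 to 55048779. Chrna5 is on the plus strand there, and Chrna3 and Chrnb4 are on the minus strand. The other members lie on chromosomes 17 (Slc5a7, ENSMUSG00000023945), 5 (Ache, ENSMUSG00000023328), 2 (Chrna4, ENSMUSG00000027577), 3 (Chrnb2, ENSMUSG00000027950) and 8 (Chrnb3, ENSMUSG00000031492). All 10 are protein-coding.

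The bases before the start site are shown for 3 members that were higher in every Grn KO library than in any other, each from another chromosome, and for Chrnb2, which was present in every library. They are from RefSeq on GRCm38.p6, in which 9 of the 10 members matched, all but Chrnb3. The sequences run 5′ to 3′ on the minus strand, on which all 4 genes lie, and capitals mark the motif matches described with the other windows further on. The Chat sequence covers chr14:32465990-32466159 and stops where the longest annotated Chat transcript begins. The others are the full 250 bases before the start site, Slc5a7 at chr17:54299035-54299284, Chrna3 at chr9:55026563-55026812 and Chrnb2 at chr3:89764633-89764882.
Chat: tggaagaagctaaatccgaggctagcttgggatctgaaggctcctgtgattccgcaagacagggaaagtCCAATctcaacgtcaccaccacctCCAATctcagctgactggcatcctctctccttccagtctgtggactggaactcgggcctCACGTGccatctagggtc
Slc5a7: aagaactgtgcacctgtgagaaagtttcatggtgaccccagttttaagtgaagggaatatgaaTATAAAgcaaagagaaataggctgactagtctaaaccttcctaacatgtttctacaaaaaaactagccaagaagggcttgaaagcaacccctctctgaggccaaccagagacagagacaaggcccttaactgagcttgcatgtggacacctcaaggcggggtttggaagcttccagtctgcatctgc
Chrna3: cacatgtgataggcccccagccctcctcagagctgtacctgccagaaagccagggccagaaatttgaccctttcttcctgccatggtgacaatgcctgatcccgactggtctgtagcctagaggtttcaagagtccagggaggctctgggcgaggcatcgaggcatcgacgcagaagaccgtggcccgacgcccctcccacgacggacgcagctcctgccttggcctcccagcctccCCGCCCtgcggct
Chrnb2: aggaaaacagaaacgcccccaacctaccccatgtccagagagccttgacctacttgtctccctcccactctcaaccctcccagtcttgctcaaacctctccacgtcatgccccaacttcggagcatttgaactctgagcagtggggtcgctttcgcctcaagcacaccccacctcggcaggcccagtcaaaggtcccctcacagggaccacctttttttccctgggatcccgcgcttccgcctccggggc

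Chat, the gene of the enzyme that makes acetylcholine, was seen in all 7 Grn KO libraries and in 5 of the other 19. The 4 Tmem106b WT Grn KO libraries held 14.8, 31.7, 18.7 and 12.7 CPM, and the 3 Tmem106b HET Grn KO libraries held 7.34, 62.2 and 23.9 CPM. No count of Chat was found in any library of the Tmem106b WT Grn WT, Tmem106b KO Grn WT and Tmem106b HET Grn HET groups. Among the rest, Tmem106b HET Grn WT replicate 4 held 0.189 CPM, and the 5 Tmem106b WT Grn HET libraries held 0.730, 0.682, 4.07, 0.317 and 0 CPM. The lowest Grn KO library thus lay above the highest other library, a Grn HET one, and the groups did not overlap. Group means were 19.5 ± 8.52 CPM (SD, n = 4) and 31.1 ± 28.1 CPM (SD, n = 3) in Tmem106b WT and HET Grn KO mice. Against the 3 Tmem106b WT Grn WT libraries, which held no count, the Tmem106b WT Grn KO mean was at least 802-fold higher, taking a floor of 3 counts over the group.

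Slc5a7, the choline transporter gene, followed the same division with less in Grn HET libraries. Its level was 19.3, 23.0, 14 and 17.3 CPM in Tmem106b WT Grn KO libraries and 9.88, 69.0 and 74.4 CPM in Tmem106b HET Grn KO libraries. None of the 7 libraries of Tmem106b WT or HET Grn WT mice held a count, so the Grn KO means were at least 758-fold and at least 3709-fold higher. The highest level outside Grn KO was 0.723 CPM, in Tmem106b WT Grn HET replicate 2. Replicate 3 of that group, which had the most Chat among Grn HET libraries, held no Slc5a7 count.

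Slc18a3, the vesicular transporter gene nested in the Chat locus, stood at 12.6, 20.8, 22.6 and 20.5 CPM in the Tmem106b WT Grn KO group. The Tmem106b HET Grn KO group held 14.2, 76.7 and 37.2 CPM. The other libraries reached at most 0.579 CPM, and 13 of the 19 held no count. Relative to Tmem106b WT Grn WT, without a count, the mean was at least 787-fold higher. The Tmem106b HET Grn WT group held 2 counts in all, too few for a fold change. In the same libraries the level per gene length of Slc18a3 was 0.762 to 2.25 times that of Chat (median 1.44, 7 Grn KO libraries), and that of Slc5a7 was 0.394 to 1.69 times that of Chat (median 0.708).

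Ache, which encodes the degrading enzyme, did not divide the libraries this way. Every library held it, from 27.9 to 380 CPM (median 50.7) in Grn KO mice and from 19.9 to 540 CPM (median 34.6) in the other 19. Tmem106b WT Grn KO libraries held 57.5, 50.7, 27.9 and 48.7 CPM, against 19.9, 136 and 24.9 CPM in Tmem106b WT Grn WT. Tmem106b HET Grn KO libraries held 33.2, 114 and 380 CPM. The groups overlapped, and the highest values on both sides came from the 2 libraries with the most neuron marker RNA.

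Of the subunit genes on chromosome 9, Chrna3, for the alpha3 subunit, separated the libraries. It stood at 73.1, 82.5, 77.2 and 60.9 CPM in Tmem106b WT Grn KO libraries, and at 0.140, 1.44 and 0.346 CPM in Tmem106b WT Grn WT libraries. Tmem106b HET Grn KO libraries held 52.8, 282 and 89.2 CPM, against 0.672, 0, 4.16 and 1.05 CPM in Tmem106b HET Grn WT. The ratios of the group means were 114 and 96.2, and the fitted log2 fold changes were 7.44 (SE 1.34) and 7.31 (SE 1.23). The highest level outside Grn KO, 13.3 CPM, was in Tmem106b KO Grn WT replicate 2, below every Grn KO library.

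Chrnb4, the beta4 subunit gene next to it, was at 37.0, 60.0, 46.9 and 43.9 CPM in Tmem106b WT Grn KO libraries and at 32.4, 207 and 92.0 CPM in Tmem106b HET Grn KO libraries. Its level per gene length was 0.716 to 1.46 times that of Chrna3 in the same 7 libraries (median 1.02). Outside Grn KO it reached 10.8 CPM in Tmem106b WT Grn HET replicate 5 and was without a count in 8 of 19 libraries. Its mean in Tmem106b WT was 36.3 times that of Grn WT, and the Tmem106b HET Grn WT group held a single count.

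Chrna5, the alpha5 subunit gene at the other end of this locus, stayed close to the limit of counting. It had no count in 2 of the 7 Grn KO libraries and at most 0.774 CPM, with 43 counts, in the others. Of the other 19 libraries 14 had no count, and the highest held 0.723 CPM. The groups overlapped. The genes that flank the locus, Psma4 and Ube2q2, ranged over 28.4 to 46.5 and 23.4 to 51.6 CPM with Grn KO, against 25.7 to 54.6 and 24.0 to 50.4 CPM without. Their fitted log2 fold changes in Tmem106b WT were -0.01 (edgeR's quasi-likelihood test, adjusted p = 0.99) and 0.07 (adjusted p = 0.944). In Tmem106b HET they were 0.27 (adjusted p = 0.385) and 0.34 (adjusted p = 0.305). The 2 flanking genes thus did not pass in either background, as Ercc6, on the higher side of Chat, did not (log2 fold changes 0.46 and 0.73, adjusted p = 0.673 and 0.188).

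Chrnb3, the beta3 subunit gene, held 25.1, 24.2, 13.6 and 15.4 CPM in Tmem106b WT Grn KO libraries and 10.8, 59.5 and 60.6 CPM in Tmem106b HET Grn KO libraries. No Tmem106b WT Grn WT library had a count, which makes the mean at least 807-fold higher. The narrowest gap of the separating members was here, since Tmem106b WT Grn HET replicate 2, a Hemi library, held 8.82 CPM. Its neighbour Chrna6, the alpha6 subunit gene, with which beta3 is known to assemble in dopamine neurons, ranged over 0 to 3.38 CPM with Grn KO and over 0 to 13.9 CPM without.

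Chrna4 and Chrnb2, which encode the alpha4 and beta2 subunits, overlapped between the groups. Chrna4 held 4.65, 7.27, 3.32 and 7.64 CPM in Tmem106b WT Grn KO libraries and 3.92, 21.4 and 75.1 CPM in Tmem106b HET Grn KO libraries. In Tmem106b WT Grn WT it held 1.07, 39.5 and 3.01 CPM. Chrnb2 ranged from 4.45 to 23.0 CPM (median 7.14) in Grn KO libraries and from 0.898 to 45 CPM (median 3.80) elsewhere. On the opposite strand Adar shares 1365 of the 8380 exonic bases of Chrnb2. The sources used here do not say that counting used strand, so part of the Chrnb2 counts may be reads of Adar.

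**Figure D1:**
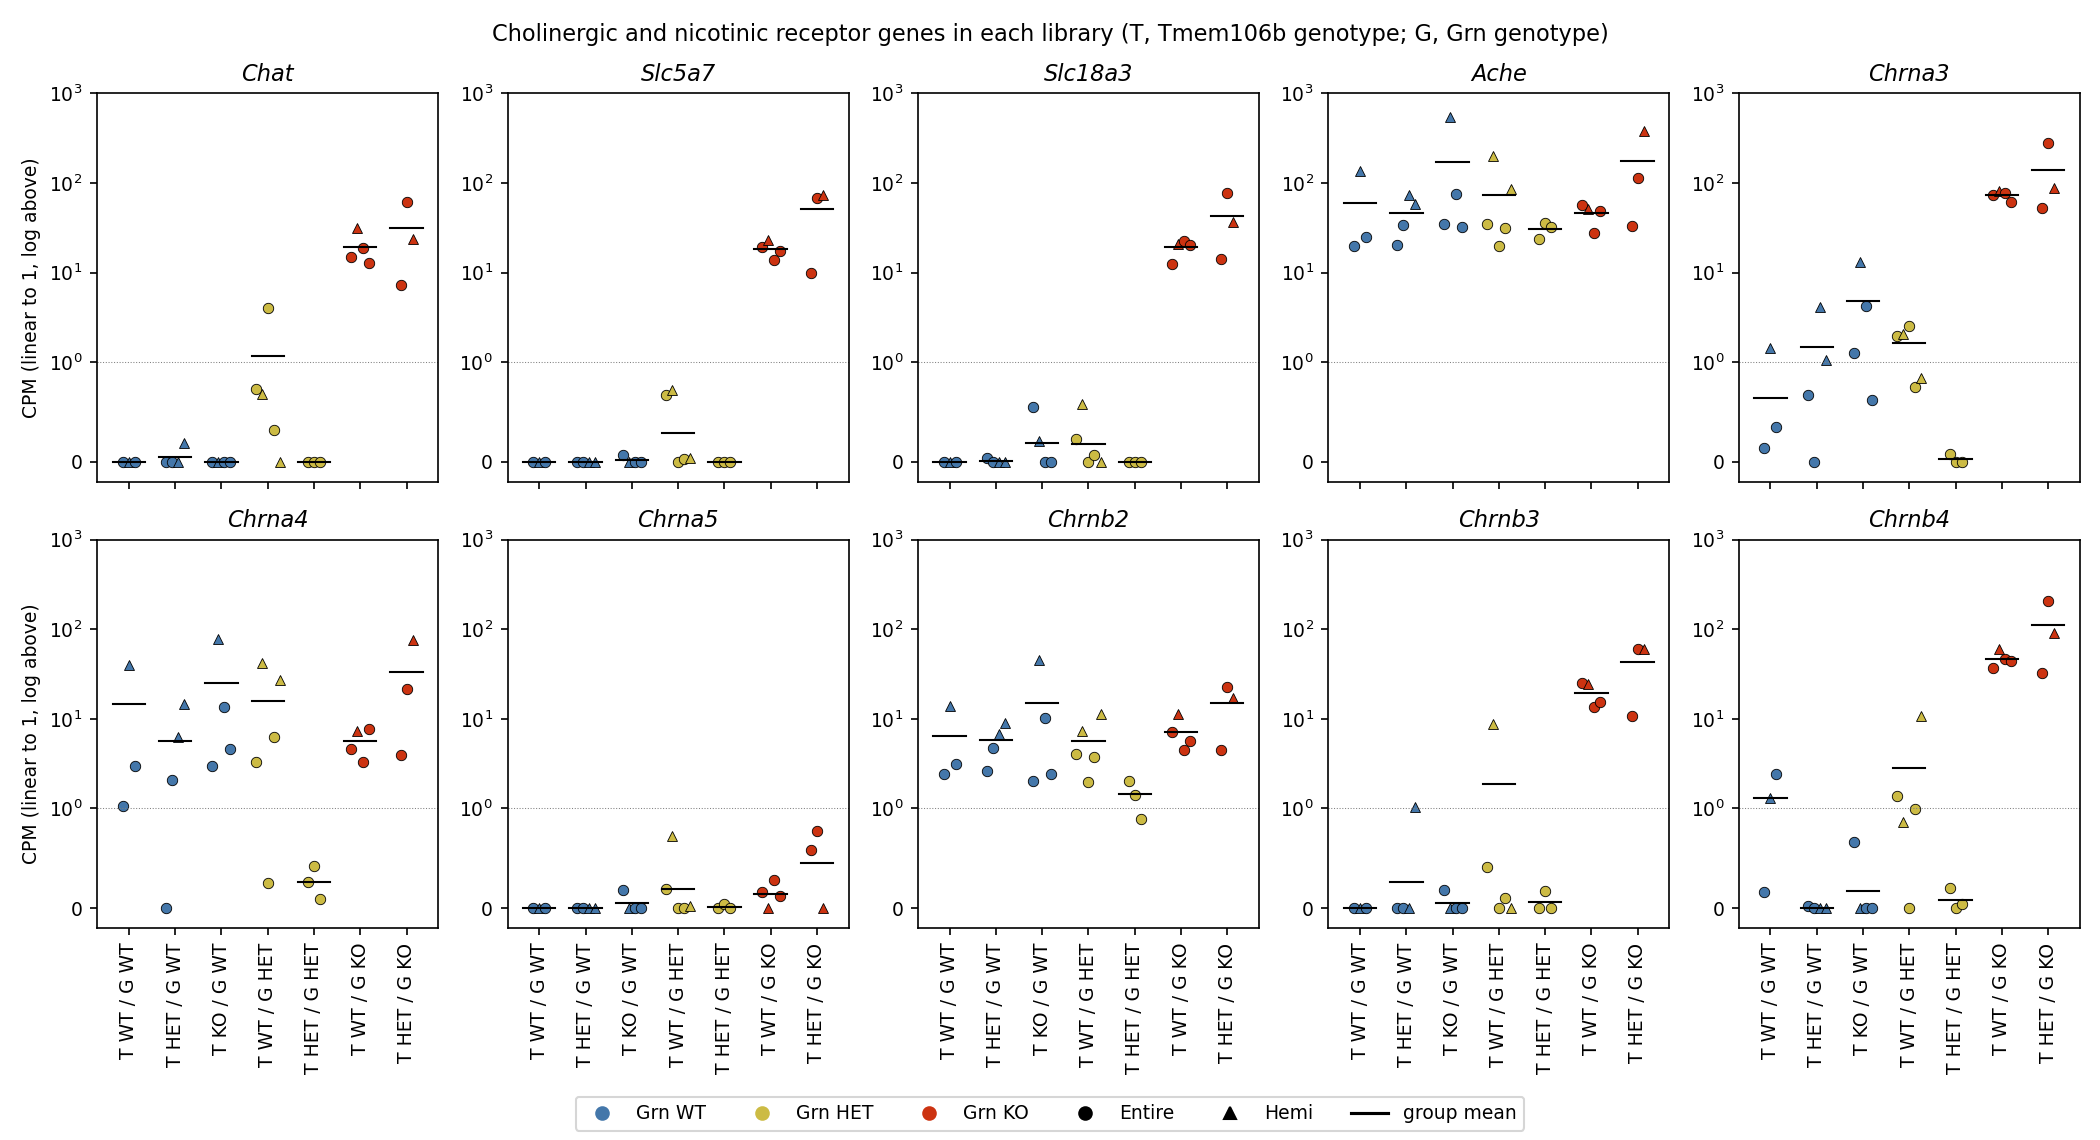
Level of each of the 10 genes (CPM, vertical axis, linear from 0 to 1 and logarithmic above) in the 26 libraries, by Tmem106b (T) and Grn (G) genotype. Points are libraries, circles Entire and triangles Hemi, and bars are group means; Chat, Slc5a7, Slc18a3, Chrna3, Chrnb3 and Chrnb4 lie higher in all 7 Grn KO libraries than in any other, while Ache, Chrna4, Chrna5 and Chrnb2 overlap.

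Counted over all members, 6 of 10 had every Grn KO library above every other library (Chat, Slc5a7, Slc18a3, Chrna3, Chrnb3 and Chrnb4). Across all genes tested 100 did so, 0.468%. The members were chosen on this difference, so nothing is read from the count. Within each dissection or sex the same division must follow for these 6 members, so it is no further check. For Chat the 5 Entire Grn KO libraries held 7.34 to 62.2 CPM against 0 to 4.07 CPM in 13 other Entire libraries. The 2 Hemi Grn KO libraries held 23.9 and 31.7 CPM, against 0 to 0.682 CPM in 6 other Hemi libraries.

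The fit over all genes (edgeR's quasi-likelihood test) used the same values as the choice of members in its Grn KO contrasts, so it is no test of them there. For completeness, 3 members (Slc5a7, Slc18a3 and Chrna3) lay past its threshold with Tmem106b WT, all higher in Grn KO than in Grn WT, where 0.576% of genes were called in either direction, 0.426% higher and 0.15% lower. The median log2 fold change was 6.67 over the members and 0.10 over all genes tested. In Tmem106b HET mice 7 members lay past it, all higher (all but Chrna4, Chrna5 and Chrnb2), where 14.5% of genes were called, 8.42% higher and 6.05% lower, and the medians were 7.79 and -0.02. Nothing is read from these counts. No member was called in Tmem106b WT once any 1 of the 3 Grn WT libraries was left out. Of all genes 39, 1 and 20 were called then (without replicate 1, 2 and 3). None was called in Tmem106b HET once the summed neuron markers entered the fit, where 2 of all genes were called. With that covariate 68 of all genes were called in Tmem106b WT, where the 8 other settings tried gave 2 to 5 members. Without both libraries of highest neuron marker sum 5 members were called in Tmem106b WT and 5 in Tmem106b HET. Of all genes 550 and 1548 were called then, against 123 and 3093 with all libraries, so the counts moved over all genes too.

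Compared per gene length, by the deposited RPKM values, Ache led the members in Grn KO libraries, with a median of 19.5 RPKM (10.9 to 146). Chrna3 (12.5 RPKM), Chrnb4 (10.7), Slc18a3 (7.33) and Chat (5.67) came next. Slc5a7 (3.21) and Chrnb3 (3.20), then Chrna4 (1.29), Chrnb2 (0.737) and Chrna5 (0.0456) followed. Neighbours in this order overlapped over the 7 libraries, except that every Chrnb2 value (0.460 RPKM or more) lay above every Chrna5 value (0.219 RPKM or less). In the other 19 libraries Ache led with a median of 13.2 RPKM, followed by Chrna4 (0.574), Chrnb2 (0.383), Chrna3 (0.136) and Chrnb4 (0.00838), and the other 5 genes had a median of 0. By median, the receptor genes of highest level were Chrna3 with Chrnb4 in Grn KO libraries and Chrna4 with Chrnb2 elsewhere. The members were chosen on the difference between these library sets, so nothing is read from this order. The Chrnb2 level may also include reads of Adar.

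**Figure D2:**
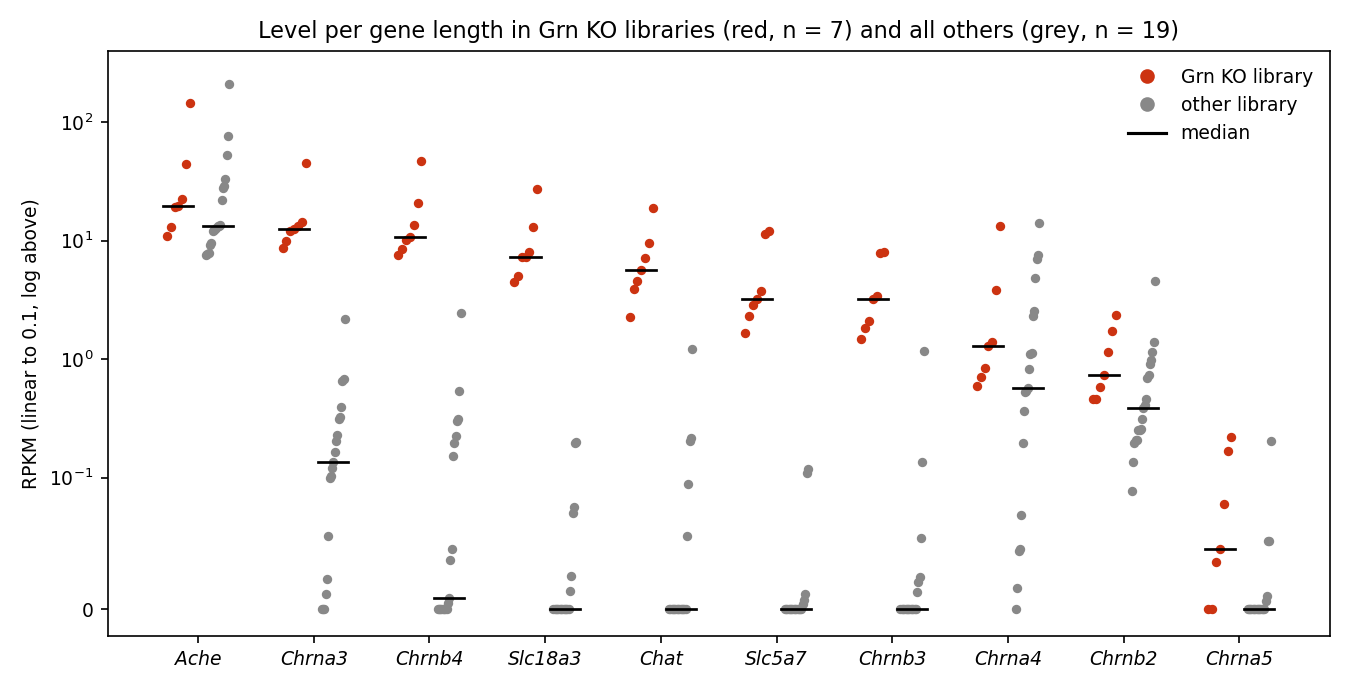
Level per gene length (RPKM as deposited, vertical axis, linear from 0 to 0.1 and logarithmic above) of the 10 genes, ordered by their median in Grn KO libraries. Red points are the 7 Grn KO libraries, grey points the other 19 and bars the medians; Ache and Chrna4 have similar ranges on both sides, while Chat, Slc5a7, Slc18a3 and Chrnb3 have a median of 0 outside Grn KO.

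Neuronal RNA differed between libraries, and its level is set beside these genes. The neuron markers summed to 951 to 12428 CPM in Grn KO libraries (median 1380) and to 80.2 to 12258 CPM in the others (median 444), none of the 12 with every Grn KO library above every other. Per 1000 CPM of neuron markers, Chrna3 was at 7.18 to 81.3 in Grn KO libraries and at most 15.9 in the others, so the ranges overlapped. Chat was at 1.92 to 28.7 against at most 25.8, where the highest other library was Tmem106b WT Grn HET replicate 3 with a neuron marker sum of only 158 CPM. Chrnb4 overlapped as well, at 7.40 to 54.7 against at most 13.2. On the same scale Slc5a7 (5.98 to 20.9 against at most 1.81), Slc18a3 (2.99 to 23.8 against at most 1.24) and Chrnb3 (4.87 to 22.0 against at most 2.0) did not overlap. Ache stood at 29.4 to 46.0 in Grn KO libraries and at 31.3 to 299 in the others, and Chrna4 at 3.26 to 6.59 against 0 to 18.5.

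The 2 Hemi libraries richest in neuron markers had like sums of these markers, and their levels are given side by side. Tmem106b HET Grn KO replicate 3, with 12428 CPM of neuron markers, held 23.9 CPM Chat, 74.4 CPM Slc5a7, 92.0 CPM Chrnb4 and 89.2 CPM Chrna3. Tmem106b KO Grn WT replicate 2, with 12258 CPM, held no count of Chat, Slc5a7, Chrnb3 or Chrnb4, and 13.3 CPM Chrna3. Ache (380 and 540 CPM) and Chrna4 (75.1 and 78.6 CPM) were high in both. These are single libraries that differ in both genotypes, and no test was made. In bulk RNA a larger share of cells of a type and more RNA per cell cannot be told apart.

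**Figure D3:**
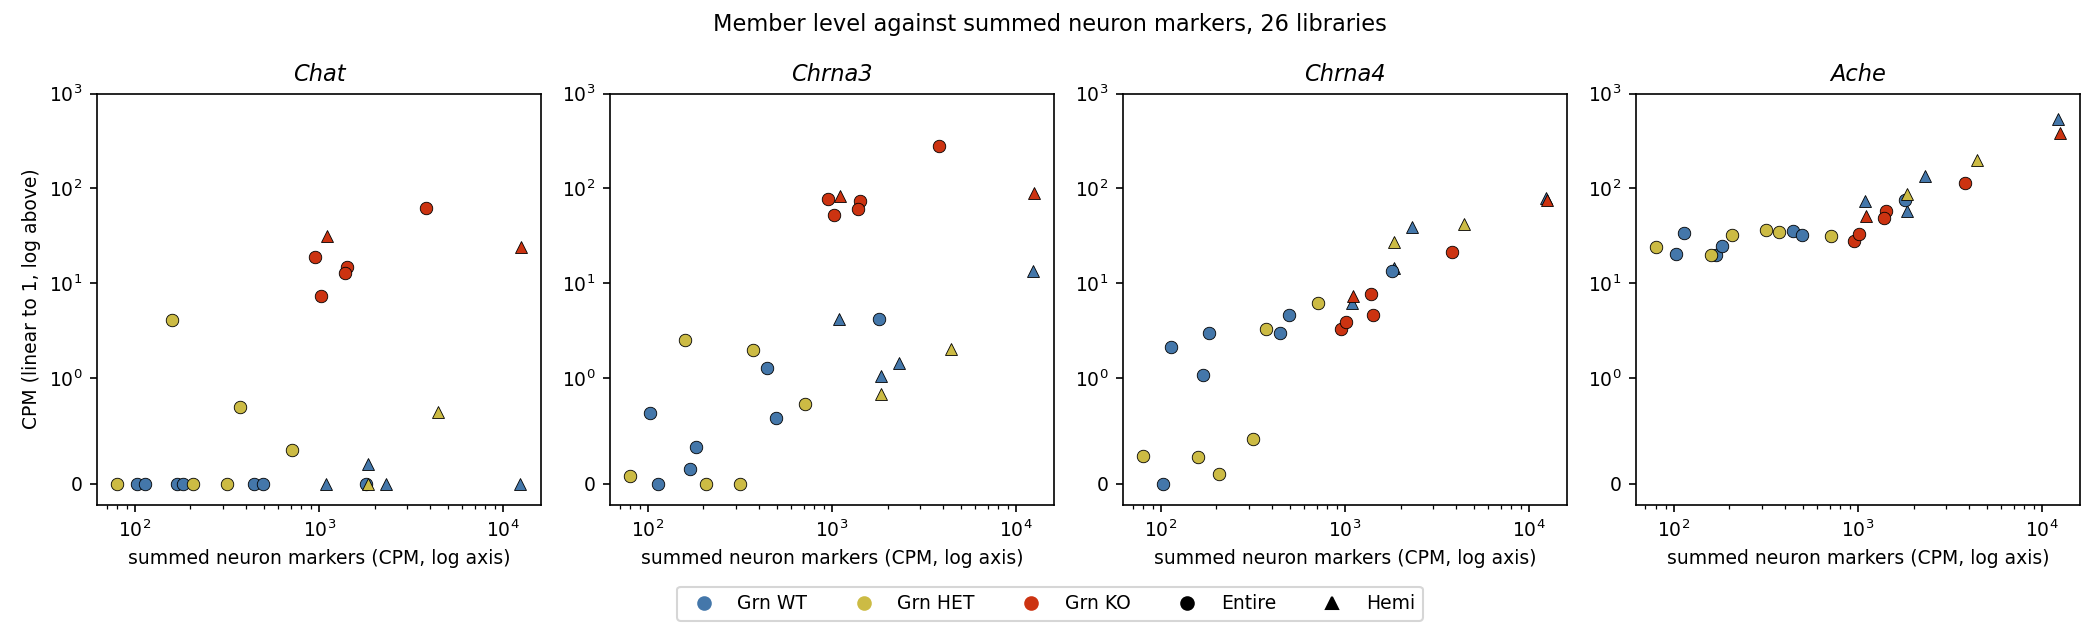
Level of Chat, Chrna3, Chrna4 and Ache (CPM, vertical axis, linear from 0 to 1 and logarithmic above) against the sum of 12 neuron markers in the same library (CPM, logarithmic axis), 26 libraries coloured by Grn genotype, circles Entire and triangles Hemi. Chat and Chrna3 of the 7 Grn KO libraries lie above libraries with a like marker sum, while Chrna4 and Ache of all genotypes follow the marker sum along 1 band. The members were chosen on the difference between Grn KO and other libraries.

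Markers of single cholinergic and other cell types were summed in the same way. The list of 12 medial habenula genes, put together with these data already known, summed to 357 to 1652 CPM in Grn KO libraries and to 9.39 to 1340 CPM in the others. For 4 of the 12 (Nwd2, Tac2, Lrrc55 and Pou4f1) every Grn KO library lay above every other, as for 0.468% of all genes tested. The others overlapped, among them Slc17a6 (32.0 to 573 against 1.09 to 436 CPM) and Calb2 (35.2 to 280 against 1.80 to 635 CPM). Of 8 genes of basal forebrain and striatal cholinergic neurons the sums were 15.4 to 64.7 CPM (median 19.3) and 0.449 to 77.4 CPM (median 7.16), with none of the 8 separated. Zic4 was the largest part by mean (14.7 to 54.8 and 0 to 16.3 CPM). Gbx2 (0.283 to 19.1 and 0 to 50.7 CPM) and Isl1 (0 to 15.7 and 0 to 19.4 CPM) came next. The 2 defining factors Lhx8 and Gbx1 reached at most 0.173 and 0.129 CPM in Grn KO libraries, and 0.389 and 0.0845 CPM in the others. The 8 motor neuron genes summed to 4.94 to 20.9 and 6.82 to 65.1 CPM, of which Mmp9 was the largest part by mean (2.84 to 17.2 and 2.41 to 51.2 CPM). Mnx1 and Tbx20, which define those neurons, had no count in any library. The 8 genes of dopaminergic and noradrenergic neurons summed to 49.7 to 224 CPM (median 74.4) and 5.90 to 397 CPM (median 16.2). Of these 1, Nr4a2, separated the libraries (32.2 to 187 against 0.692 to 25.3 CPM), while Dbh and Slc6a2, both of noradrenergic neurons, were at 0 in all 26. The part of these cells in the levels of Chat and the other members was not tested.

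The remaining lists of 8 markers each overlapped between Grn KO and other libraries. Thalamic neuron genes summed to 627 to 1648 and 671 to 1382 CPM, of which Prkcd was the largest part by mean (440 to 558 and 276 to 839 CPM). Astrocyte genes summed to 370 to 1181 and 347 to 1440 CPM, and oligodendrocyte genes to 728 to 10359 and 545 to 25453 CPM. Choroid plexus and ependymal genes summed to 4.59 to 822 CPM in Grn KO libraries and to 2.97 to 27514 CPM in the others, highest in Tmem106b WT Grn HET replicate 5, the library with the most Chrnb4 outside Grn KO. Pineal genes (22.7 to 41.5 and 9.08 to 42.5 CPM), endothelial genes (56.0 to 157 and 12.6 to 860 CPM) and T and NK cell genes (21.3 to 198 and 0.0630 to 225 CPM) were low. B cell genes summed to 171 to 556 and 200 to 1255 CPM, nearly all of it Ighm, and erythrocyte genes to 0.508 to 126 and 0 to 482 CPM. Microglia markers summed to 8595 to 30382 CPM in Grn KO libraries (median 27481) and to 8824 to 52134 CPM in the others (median 46049). Every library of the Tmem106b WT Grn WT, Tmem106b HET Grn WT and Tmem106b HET Grn HET groups held at least 34488 CPM, above every Grn KO library. The part of any of these cell types in the results was not tested.

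Among Grn KO libraries, the level in Tmem106b HET was compared with that in Tmem106b WT, a contrast that the choice of genes did not use. None of the 10 members passed (edgeR's quasi-likelihood test, where 0% of all genes tested were called), and none had an unadjusted p under 0.05. DESeq2 and limma-voom also called none, with 0 and 2 at an unadjusted p under 0.05. The log2 fold change, Tmem106b HET over WT, was 0.48 for Chat (SE 1.39, adjusted p = 0.963), 1.19 for Slc5a7 (SE 1.17, adjusted p = 0.922) and 0.78 for Slc18a3 (SE 1.19, adjusted p = 0.934). Among receptors it was 0.79 for Chrna3 (SE 0.94, adjusted p = 0.924) and 1.04 for Chrnb4 (SE 1.26, adjusted p = 0.926). The median over the members was 0.82, against -0.03 over all genes tested. Means were higher in Tmem106b HET for all 10 in CPM, but replicate 1 of that group lay below every Tmem106b WT Grn KO library for Chat, Slc5a7, Chrna3, Chrnb3 and Chrnb4, and the groups overlapped. The standard errors of the 10 members ran from 0.50 (Ache) to 2.28 (Chrna5) on the log2 scale.

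The dissection label was also outside the rule. Ache, Chrna4 and Chrnb2 rose in Hemi relative to Entire libraries (edgeR's quasi-likelihood test over 26 libraries with genotype and sex in the fit), 3 of 10 members, where 20.7% of all genes tested were called in either direction, 11.7% higher and 9.03% lower. The log2 fold change was 1.96 for Ache (SE 0.30, adjusted p = 0.00053), 3.01 for Chrna4 (SE 0.65, adjusted p = 0.00402) and 1.44 for Chrnb2 (SE 0.36, adjusted p = 0.00878). All 3 overlapped between Grn KO and other libraries. Neuron marker RNA moved with dissection as well, from 80.2 to 3792 CPM in Entire to 1086 to 12428 CPM in Hemi libraries. In the 6 groups that held both dissections the Hemi mean was higher in 6 of 6 for each of the 3, and in 5 of 6 every Hemi library lay above every Entire library.

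For Chrna4 the Hemi libraries outside Grn KO held 6.24 to 78.6 CPM (median 33.3, 6 libraries) and the Entire libraries 0 to 13.6 CPM (median 2.10, 13 libraries). For Ache the same ranges were 57.9 to 540 CPM (median 111) and 19.9 to 75.1 CPM (median 32.0). The members that marked Grn KO libraries did not pass. Chat was at -0.02 (SE 3.90, adjusted p = 0.999), Slc5a7 at 0.51 (SE 0.91, adjusted p = 0.747) and Chrna3 at 1.12 (SE 0.63, adjusted p = 0.226). Slc18a3 (1.01, SE 0.84, adjusted p = 0.438), Chrnb3 (3.34, SE 1.5, adjusted p = 0.128), Chrnb4 (0.46, SE 0.98, adjusted p = 0.79) and Chrna5 (-0.17, SE 1.39, adjusted p = 0.95) did not pass either. Whether the effect of dissection differs between members was not tested. With the summed neuron markers in the fit none of the 10 passed, where 0 of all genes tested were called. Chrnb2 no longer passed without Tmem106b KO Grn WT replicate 2 (adjusted p = 0.0555) or the Hemi library of Tmem106b WT Grn WT (adjusted p = 0.068). Without both libraries of highest neuron marker sum 3 members still passed, where 1653 of all genes were called.

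**Figure D4:**
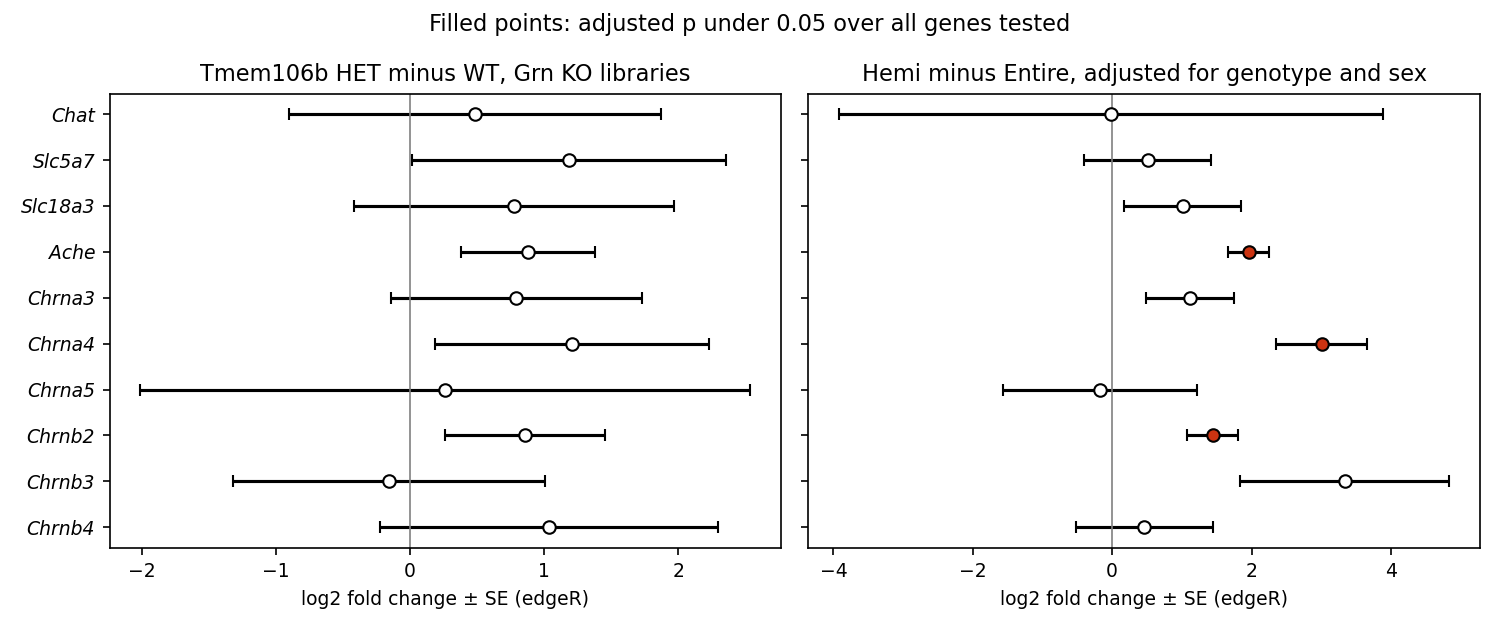
Log2 fold change with its standard error (edgeR, horizontal axis) of the 10 genes for Tmem106b HET minus WT among Grn KO libraries (left) and Hemi minus Entire over 26 libraries (right). The standard error is the absolute log2 fold change over the square root of the F statistic, and is unstable near 0. Filled points passed at an adjusted p under 0.05 over all genes tested: none on the left, and Ache, Chrna4 and Chrnb2 on the right.

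No member passed between Grn HET and Grn WT mice. With Tmem106b WT, 4 had an unadjusted p under 0.05 in edgeR (Chat, Slc5a7, Slc18a3 and Chrnb3), limma-voom called 0 (1 at an unadjusted p under 0.05), and DESeq2 called 2, Chrnb3 and Chrna5. These are genes without a count in 3 Grn WT libraries and at most 8.82 CPM in 5 Grn HET libraries. Over all genes edgeR called 0% and DESeq2 called 307 genes. With Tmem106b HET, edgeR called 0 (1 at an unadjusted p under 0.05), limma-voom 0 and DESeq2 2, Chrna3 and Chrna5. Over all genes edgeR again called 0% there and DESeq2 called 278 genes. Chrna3 was there at 0.0738, 0 and 0 CPM in Grn HET and at 0.672, 0, 4.16 and 1.05 CPM in Grn WT libraries.

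Nor did Tmem106b genotype move a member outside Grn KO by edgeR's test. Tmem106b KO against WT among Grn WT mice gave 0 of 10, while limma-voom called 0 and DESeq2 2. Over all genes edgeR called 0.00468% there and DESeq2 called 548 genes. In edgeR 3 members had an unadjusted p under 0.05. Of the 3, Chrna3 (2.75 on the log2 scale, SE 1.12, adjusted p = 0.434) and Ache (1.19, SE 0.51, adjusted p = 0.438) had counts in all 7 libraries compared, and the highest library of both was the neuron-rich Tmem106b KO Grn WT replicate 2. Tmem106b HET against WT gave 0 of 10 among Grn WT mice, with 1 at an unadjusted p under 0.05. Among Grn HET mice it also gave 0 of 10, with 5 at an unadjusted p under 0.05. In both limma-voom called 0 members and DESeq2 2, where edgeR called 0% of all genes. DESeq2 called 265 genes in all among Grn WT mice and 515 among Grn HET mice. In the Grn HET comparison the Tmem106b HET group held no Hemi library. The test of whether the Grn KO minus WT difference depends on Tmem106b (HET or WT) passed for 0 of 10. In edgeR 1 had an unadjusted p under 0.05, while limma-voom called 0 and DESeq2 1. Over all genes edgeR called 0% there and DESeq2 called 207 genes.

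The other genes of the cholinergic pathway were read from a list of 45, of which 34 passed the expression filter. The 11 that did not included the muscle and cochlear subunit genes Chrna1, Chrnd, Chrna9 and Chrna10. The list was put together with earlier results known, so its Grn KO contrasts are no independent evidence. In Tmem106b WT mice edgeR called none of the 34 between Grn KO and Grn WT, with 7 at an unadjusted p under 0.05. DESeq2 called 2 of the 34 there, and 1170 of all genes, and limma-voom called 1 of the 34. The median log2 fold change was 0.92 against 0.10 over all genes. In Tmem106b HET mice 6 were called higher and 1 lower, where 8.42% of all genes were called higher and 6.05% lower, and the median was 0.20 against -0.02. Of the 6, Pou4f1, which encodes a transcription factor of habenular and sensory neurons, and the muscarinic receptor gene Chrm4 were nearly confined to Grn KO libraries and passed the filter through them, so they are given by level only. Pou4f1 was at 3.26 to 15.9 CPM in Grn KO libraries and at most 2.90 CPM in the others, and Chrm4 at 0 to 1.26 CPM and at most 0.0634 CPM. Lypd1, Ly6h and Lynx1, whose products bind nicotinic receptors and modulate them, rose by 3.58 (SE 0.84, adjusted p = 0.00945), 3.54 (SE 0.84, adjusted p = 0.0102) and 2.52 (SE 0.69, adjusted p = 0.0202), although their levels overlapped between Grn KO and other libraries. The muscarinic receptor gene Chrm3 rose (5.40, SE 1.77, adjusted p = 0.0458), and Slc44a2, a choline transporter-like gene expressed widely, fell by 1.56 (adjusted p = 0.011). Without both neuron-rich libraries 3 were called higher (Pou4f1, Lypd1 and Ly6h) and 1 lower (Slc44a2), while Lynx1 (adjusted p = 0.0688), Chrm3 (adjusted p = 0.114) and Chrm4 were not. With single libraries left out 2 to 9 were called higher and 0 to 2 lower. It was 2 higher without Tmem106b HET Grn KO replicate 2, 3 without its replicate 3 or without Tmem106b HET Grn WT replicate 1, and 9 without Tmem106b WT Grn KO replicate 2. With the neuron marker sum in the fit edgeR called none of the 34, and 2 of all genes. Neuron marker RNA moved with this contrast too, from 103 to 1851 CPM in Grn WT to 1017 to 12428 CPM in Grn KO.

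Between dissections 8 of the 34 rose in Hemi and 3 fell, where 11.7% of all genes were called higher and 9.03% lower, and the 3 are near that share. The median was 0.25 against -0.09 over all genes. Ly6h (3.40, SE 0.50, adjusted p = 0.00048), Lynx1 (2.25, SE 0.41, adjusted p = 0.00126) and Lypd6b (2.78, SE 0.54, adjusted p = 0.00202) led. All 3 encode small proteins of the Ly6 family that act on nicotinic receptors. Lypd1 of the same family rose too (1.93, SE 0.50, adjusted p = 0.0103). So did Chrm2 (4.43, SE 1.14, adjusted p = 0.0103) and Isl1 (7.65, SE 1.74, adjusted p = 0.00595), a transcription factor gene of cholinergic and other neurons. Without both neuron-rich libraries 3 of the 8 still passed (Ly6h, Lynx1 and Lypd6b) and 1 of the lower genes (Ly6e), while Lypd1 (adjusted p = 0.0988), Chrm2 (adjusted p = 0.0597) and Isl1 (adjusted p = 0.0623) did not. With the neuron marker sum in the fit none of the 34 passed, where 0 of all genes were called. Without the Hemi library of Tmem106b WT Grn WT 5 rose and 2 fell. Chrna7, the subunit gene of the homomeric alpha7 receptor, did not pass (2.23, SE 0.83, adjusted p = 0.062), and stood at 0.281 to 23.2 CPM in Grn KO libraries and 0 to 15.1 CPM elsewhere. The list passed in 0 of 34 genes in each other comparison, among them Tmem106b HET against WT in Grn KO mice (0 at an unadjusted p under 0.05). Outside neurons, genes of choline uptake and phospholipid synthesis were present throughout, Slc44a1 with a median of 112 CPM in Grn KO and 98.0 CPM in other libraries, Pcyt1a at 29.0 to 78.6 CPM and Chka at 24.3 to 76.5 CPM over all 26.

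Members varied together to different degrees. Over 26 libraries, on log2(CPM + 0.5), Pearson's r of Chat was 0.96 with Slc5a7, 0.95 with Slc18a3, 0.92 with Chrnb3, 0.91 with Chrna3 and 0.89 with Chrnb4, but 0.17 with Ache and 0.22 with Chrna4. Ache, Chrna4 and Chrnb2 were related to each other at 0.85 to 0.89. The first values reflect mainly the difference between Grn KO and other libraries by which the genes were chosen. Within the 7 Grn KO libraries Chat remained at 0.90 with Chrna3 and 0.91 with Chrnb4, and Slc5a7 reached 0.98 with Chrnb3 and Ache 0.98 with Chrna4. The division was not kept there, since Slc5a7 was at 0.95 with Chrnb2, 0.92 with Chrna4 and 0.91 with Ache, above its 0.78 with Chat, and Chrnb2 was at 0.96 with Chrnb3 and 0.86 with Chat. All points share their library's depth and its content of neuronal RNA, so the values describe these libraries and no p is given.

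The genes most like Chat over the 26 libraries, among 14174 compared, were Nppa (r = 0.94, a natriuretic peptide gene), Lhfpl1 (0.93), Robo3 (0.93, an axon guidance receptor gene), Htr5b (0.93, a serotonin receptor gene), Ahnak2 (0.92) and Nwd2 (0.91). Htr5b held 15.7 to 95.3 CPM in Grn KO libraries and at most 3.61 CPM in the others, and Robo3 at 5.01 to 54.5 and at most 0.842 CPM. Robo3, Lhfpl1 and Nppa were also the 3 most like Slc5a7 and Slc18a3. Lhfpl1, Htr5b and Robo3 led for Chrnb4 (0.94 each), and Robo3, Gpr151, an orphan receptor gene of the habenula, and Nppa for Chrnb3 (0.93, 0.93 and 0.92). Chrna3 was closest to Fabp5 (0.96), Pou4f1 (0.95) and Nwd2 (0.94). These members were chosen for being high in Grn KO libraries, so any gene high mainly there is bound to rank high over the 26 libraries. Nothing about cell type or shared regulation is read from these lists.

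Other genes stood beside the members that did not mark Grn KO. Ache was closest to Flywch1 (0.98), Tubb2a (0.98) and Lin7b (0.97), Chrna4 to Zdhhc22 (0.96), Rph3a (0.96) and Gap43 (0.96, a gene of growing axons), and Wnk2 and Gprin1 were among the genes closest to Chrnb2 (0.93 each). Chrna5, with few counts, had no neighbour above 0.78 (Avil, then Tspan10 at 0.75 and Sphk1 at 0.74). Over the 7 Grn KO libraries alone the genes most like Chat were others, Carf (0.98), Ikbke (0.97), Slc35e2 (0.97), Wwc1 (0.97), Bend7 (0.96) and Zfp236 (0.96), so the order of likeness depends on which libraries enter.

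In the 250 bases before the start site, 7 motifs were searched on both strands in the 9 matched members and in 32851 windows of all genes. The GC box GGGCGG was in 5 of 9 members (Slc18a3, Ache, Chrna3, Chrna4 and Chrna5) and in 32.7% of all windows. In the Chrna3 sequence it stands at position -13, counted back from the start site, and is read there as CCGCCC. The E box CACGTG was in 2 members (Chat at -98 and Ache) and in 6.02% of windows. The CCAAT box CCAAT was in 1 member, Chat, at -181 and -157, and in 33.8% of windows. The TATA box TATAAA was in 1 member, Slc5a7, at -187, and in 12.4% of windows.

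GGACAG, the right-hand part of the site of REST, a repressor of neuronal genes, was in 2 members (Chrna5 and Chrnb4) and in 18.7% of windows. Chrna5 had 2 windows, of which that at chr9:54980630-54980879 held 0 motif matches. A member counts if either window matches, whereas the percentages are per window. In the Chrnb4 window 235 of 250 bases lie in annotated exons, its match at -8 among them. Exons also covered 128 bases of the Chrna4 window, 80 of Chat, 59 of Slc18a3, 54 of Ache and 32 of the matching Chrna5 window. The homeodomain core TAATTA (4.84% of windows) and the cyclic AMP response element TGACGTCA (1.55%) were in 0 of 9. Chrnb2 held none of the 7. None of the 7 motifs contains another. No motif was held by all 5 matched genes among the 6 that separated the libraries (Chat, Slc5a7, Slc18a3, Chrna3 and Chrnb4). Slc18a3 and Chrna3 both held the GC box. A match describes letters only, and a window without one says only that these letters are not in it.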

How the data were processed

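RNA of 26 mouse microglia libraries had been extracted with a column kit, amplified with SMART-Seq v4 from poly(A) tails and tagged with Nextera XT, per the labels' protocols. The submitters' processing notes name the aligner GSNAP and the build GRCm38. How reads were counted, on which annotation and with or without strand, is not given in the sources used here. Per the file headers, the authors deposited for each library whole-number counts of reads per gene and RPKM values, that is counts scaled by gene length and depth. Summed counts were 79.9 to 86.4% of the total that the RPKM values imply.

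Samples were grouped by the genotype labels. The labels carry no replicate numbers, and those used here only name libraries, in accession order. CPM was computed from each library's summed counts, which ran from 37.6 to 63.7 M (median 48.8 M). The order of the members' levels was taken from RPKM only. Tests used edgeR 4.0.16 in R 4.3.3 (TMM scaling, filterByExpr over 7 groups, robust quasi-likelihood F-test, two-sided, with sex and dissection as covariates and all 26 libraries in the fit). P-values were adjusted by Benjamini and Hochberg over 21371 genes, and passing means an adjusted p under 0.05. The SE given for edgeR is the absolute log2 fold change over the square root of the F statistic. It is approximate, and unstable where the fold change is near 0, as for Chat between dissections (SE 3.90), or where a group holds no count. DESeq2 1.42.0, limma-voom (limma 3.58.1), other scaling, filters and covariates, and leaving out each library were tried as alternatives. The edgeR script was tested on simulated data. Floors cover counting error only, and reads without molecular identifiers are not independent molecules.

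Members, the list of 45 other pathway genes and the marker lists were chosen with earlier results of these data known. Named beside the members are the up to 6 pathway genes of smallest p in a comparison and abundant genes of that list, the top 3 markers of a list by mean CPM, and for each member the 3 genes (6 for Chat) with the highest Pearson r, predicted and Y-linked genes left out. Some genes that this rule would name are not reported here. Other markers and the flanking genes were named after their values were seen. Gene positions are from GENCODE vM21 (52489 genes matched) and sequences from RefSeq, GRCm38.p6.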

Additional observations from a re-analysis of the deposited data

Results flagged for a closer look

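Within groups of 4 or 5 libraries, the highest or lowest library of each member was set against the spread of the others, by its gap to the nearest one over the whole range (Dixon's test at 95%). Of 37 such groups 14 held a library that stood apart, where chance flags about 1 in 20. Groups in which nearly all libraries hold no count are flagged by any library with a few.

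The Tmem106b WT Grn HET group held 4 of them. Chat stood apart at 4.07 CPM in replicate 3, where no Slc5a7, Slc18a3 or Chrnb4 was counted. Chrna5 (0.723 CPM) and Chrnb3 (8.82 CPM) stood apart in replicate 2, a Hemi library with the second highest Ache level outside Grn KO. Chrnb4 stood apart at 10.8 CPM in replicate 5, the library richest in choroid plexus markers.

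In the Tmem106b KO Grn WT group Ache (540 CPM) and Chrna4 (78.6 CPM) stood apart in replicate 2, the library rich in neuron markers. Replicate 1 of that group stood apart by low levels of Slc5a7 (0.0690 CPM), Chrna5 (0.184 CPM), Chrnb3 (0.184 CPM) and Chrnb4 (0.667 CPM), genes with no count in its other libraries. In the Tmem106b HET Grn WT group replicate 4 held Chat (0.189 CPM) and Chrnb3 (1.03 CPM), and replicate 1 held Slc18a3 (0.0407 CPM, 2 counts) and Chrnb4 (0.0204 CPM, 1 count). No library of the 4 Tmem106b WT Grn KO mice stood apart for any member.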

How the results depend on the processing

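Every comparison was refitted with each library left out and under 8 other settings. The count of members called in Grn KO against WT with Tmem106b WT (3) became 5 with DESeq2, 5 with limma-voom and 5 without both libraries of highest neuron marker sum, an alternative chosen after seeing the data. Leaving out single libraries gave 0 (each of the 3 Tmem106b WT Grn WT libraries) to 5 (without Tmem106b KO Grn WT replicate 2). With Tmem106b HET the 7 called became 0 with the neuron marker sum as a covariate and 4 (without Tmem106b HET Grn KO replicate 3) to 9 with single libraries left out. DESeq2 called 2 members, against 0, in each of Grn HET against WT with Tmem106b WT and with Tmem106b HET, and in Tmem106b HET against WT in Grn WT, Tmem106b KO against WT in Grn WT and Tmem106b HET against WT in Grn HET, and 1 in the interaction. Over all genes it called 307, 278, 265, 548 and 515 in these comparisons, in that order, and 207 in the interaction. The 3 called between dissections became 0 with the neuron marker sum as a covariate and stayed at 2 to 4 with single libraries left out.

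For Tmem106b HET against WT in Grn KO no setting called a member, and signs turned. With the neuron covariate Slc18a3 was at -0.031 and Chrna5 at -0.17, and with DESeq2 Chrna5 was at -0.94. Chrnb3 (-0.16) was at 0.74 with limma-voom, 0.90 without covariates, 0.97 with sex alone and 0.54 without both neuron-rich libraries. With single libraries left out Chat ran from -0.77 to 0.97, Chrna3 from -0.58 to 1.35, Chrna5 from -0.71 to 1.74, Chrnb2 from -0.25 to 1.27, Chrnb3 from -1.35 to 1.66 and Chrnb4 from -0.22 to 1.46; for all but Chrna5 and Chrnb3 the negative value was without Tmem106b HET Grn KO replicate 2.

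Between dissections Chat (-0.02) was at 0.036 with DESeq2 size factors, 0.22 with DESeq2, 0.31 with limma-voom, 0.33 with the neuron covariate and 0.085 without both neuron-rich libraries, where Chrna5 was at 1.14. With the neuron covariate Slc5a7 was at -0.32, Slc18a3 at -0.50, Chrna3 at -0.047 and Chrnb3 at -0.85. With single libraries left out Chat ran from -0.67 to 0.52, Slc5a7 from -0.057 to 1.54, Chrna5 from -2.52 to 1.03 and Chrnb4 from -0.43 to 1.14. Chrnb3 passed with DESeq2 (4.39, adjusted p = 0.0363) and, in edgeR, when Tmem106b WT Grn KO replicate 1 or 2 was left out (4.64 and 4.44, adjusted p = 0.0406 and 0.0494). The cause of these changes was not tested. Over all genes, the number called in Grn KO against WT was 123 with Tmem106b WT. It was 1170 with DESeq2, 45 with sex alone, 68 with the neuron covariate and 550 without both neuron-rich libraries. With single libraries left out it was 1 to 376. With Tmem106b HET it was 3093, and 5264 with DESeq2, 2 with the neuron covariate and 1548 without both neuron-rich libraries. With single libraries left out it was 1095 to 3556 there. Between dissections it was 4424 (0 with the neuron covariate, 1653 without both libraries, 2571 to 5174 with single libraries left out). The order of members per gene length kept 8 of 10 ranks with counts per kilobase. Chrna5, with at most 43 counts in a library, is limited by counting error. No paired analysis was possible because the labels carry no replicate numbers; the numbers in the text were given in accession order and pair nothing.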
